A study of Mus musculus with 20 samples.

Results

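The choroid plexus epithelium genes Ttr, Folr1, Kl, Clic6, Kcne2, Otx2, Slc4a5, Sostdc1, F5 and Aqp1 were followed in 20 hippocampus RNA-seq libraries of young adult mice. The 10 genes were selected by symbol from the 48709 genes of the count table, with no cut on a measured value, but the list itself was drawn up with the levels of these genes in these libraries known. All 10 were found, each under 1 identifier, and all 10 were among the 19797 genes that passed the filter on low counts. Their levels, spread and co-variation are therefore given as a description, with no test between genes or groups. The comparisons of exposure and sex come from fits of all 19797 genes.

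The mice, C57BL/6 by the labels and C57BL/6J by the methods, were offspring of dams that breathed nPM, a re-aerosolized nano-sized fraction of urban traffic particulate matter, or filtered air. Exposure ran for 5 h on 3 days of the week from gestational day 2, at a dose of 300 whose unit differs between the sample labels and the methods. The 4 groups were Ct_F and Ct_M, the female and male offspring of filtered-air dams, and nPM_F and nPM_M, the female and male offspring of nPM dams, with 5 libraries each. The labels name no transgene or deletion in any group, and each library was 1 hippocampus of the right hemisphere from a brain perfused with saline. Offspring came from 5 litters per exposure and the labels do not say which, so the p-values treat mice that may share a litter as independent. Females were 17.71 to 18.29 weeks old and males 18.57 to 19.14 weeks old, so sex and age cannot be told apart. The methods also describe injection of male mice with EdU, a label for newly made cells, before tissue collection. They add that all animals were injected but do not name females. If only males were injected, sex and EdU cannot be told apart either.

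Libraries held 19092067 to 38663408 counts over all genes, and no pair of libraries was identical. A list of 15 hippocampal neuron markers was above 0 in every library. No tissue other than the hippocampus was measured here, so this does not test the identity of the tissue. The list summed to 1861 to 4922 CPM, the count scaled to the library total. This scale was computed here with TMM scaling for single genes and without it for summed lists. The amount of choroid plexus included in each dissection is not given in the sources used here.

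The choroid plexus is the secretory tissue that hangs in the brain ventricles, including the lateral ventricle along the hippocampal fimbria. Its epithelium makes cerebrospinal fluid by moving ions, bicarbonate and water from blood to ventricle, and it secretes carrier proteins and growth factors into that fluid. It adjoins the ciliated ependymal lining of the ventricle, and its stroma is continuous with the meninges. Transthyretin, the product of Ttr, is its most abundant secreted protein and carries thyroid hormone and retinol-binding protein. Otx2 is the homeodomain transcription factor that specifies this epithelium and keeps it differentiated.

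Homeodomain proteins of the Otx family recognise the letters TAATCC. The 250 bases upstream of RefSeq start sites (GRCm38.p6) were searched for TAATCC or its reverse complement GGATTA, on both strands. Start sites were held for 6 of the 10 genes, Kl, Kcne2, Otx2, Slc4a5, F5 and Aqp1, in 10 windows, and not for Ttr, Folr1, Clic6 or Sostdc1. The motif was in 1 of those 10 windows, in 4 of the 44 windows held for 32 of a list of 36 other choroid plexus genes, and in 2054 of 32851 windows over all genes, or 6.25%. The windows below were picked to show cases with and without this motif, so it is more frequent among them than in the sets above. They belong to genes whose counts moved together over the libraries, Otx2 least closely. Bases of the motif are in capitals, and each window reads 5′ to 3′ on the strand of its gene.

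Kcne2 (chr16:92292139-92292388, plus strand): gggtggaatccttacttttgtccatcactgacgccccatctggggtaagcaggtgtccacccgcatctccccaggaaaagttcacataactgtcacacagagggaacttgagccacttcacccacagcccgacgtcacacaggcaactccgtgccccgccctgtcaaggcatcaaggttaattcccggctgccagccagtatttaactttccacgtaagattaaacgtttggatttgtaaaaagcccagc
Aqp1 (chr6:55336049-55336298, plus strand): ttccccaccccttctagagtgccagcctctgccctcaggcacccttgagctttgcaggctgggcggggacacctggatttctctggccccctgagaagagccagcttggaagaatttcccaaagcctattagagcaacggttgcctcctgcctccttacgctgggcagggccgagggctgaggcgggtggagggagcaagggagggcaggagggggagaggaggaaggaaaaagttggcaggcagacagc
F5 (chr1:164151585-164151834, plus strand): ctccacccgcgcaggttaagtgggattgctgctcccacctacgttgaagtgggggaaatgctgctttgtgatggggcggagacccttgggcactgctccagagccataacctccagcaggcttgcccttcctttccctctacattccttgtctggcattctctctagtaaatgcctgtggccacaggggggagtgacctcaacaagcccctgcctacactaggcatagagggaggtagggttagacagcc
Otx2, start site 3 of 4 (chr14:48665110-48665359, minus strand): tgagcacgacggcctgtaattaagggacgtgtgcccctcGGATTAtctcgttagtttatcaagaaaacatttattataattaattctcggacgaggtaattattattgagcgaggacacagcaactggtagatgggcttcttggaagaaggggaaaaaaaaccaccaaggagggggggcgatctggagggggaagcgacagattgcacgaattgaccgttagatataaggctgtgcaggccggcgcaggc
Mfrp (chr9:44101520-44101769, plus strand): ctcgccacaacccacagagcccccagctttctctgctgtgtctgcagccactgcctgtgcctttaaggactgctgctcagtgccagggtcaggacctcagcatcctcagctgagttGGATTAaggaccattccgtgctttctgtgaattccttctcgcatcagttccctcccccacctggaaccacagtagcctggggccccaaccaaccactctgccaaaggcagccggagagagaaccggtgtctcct
Abca4 (chr3:122044210-122044459, plus strand): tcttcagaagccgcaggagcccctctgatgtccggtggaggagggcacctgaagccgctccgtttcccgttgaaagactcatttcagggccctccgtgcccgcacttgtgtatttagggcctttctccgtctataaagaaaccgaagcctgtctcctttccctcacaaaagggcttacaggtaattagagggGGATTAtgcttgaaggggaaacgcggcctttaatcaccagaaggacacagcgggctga

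The Kcne2, Aqp1 and F5 windows did not hold these letters. In Otx2 the motif began 211 bases before the start site, in Mfrp 134 bases before it and in Abca4 58 bases before it. Mfrp and Abca4 are on that list and among the 10 genes with profiles most like the mean of the members. A match describes letters in a window and no binding was measured.

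Ttr varied 690-fold over the 20 libraries, from 10.7 CPM (291 counts) in Ct_M replicate 3 to 7409 CPM (224101 counts) in nPM_F replicate 1. In Ct_F, Ttr was 13.9, 233, 45.9, 430 and 279 CPM in replicates 1 to 5. In nPM_F it was 7409, 59.6, 23.2, 32.5 and 1579 CPM. The 5 Ct_F libraries stayed within 31.0-fold of each other, whereas 2 nPM_F libraries were above all of Ct_F and 3 were within its range. In Ct_M, Ttr was 56.2, 4528, 10.7, 6587 and 2687 CPM, a 613-fold range. In nPM_M it was 36.6, 2815, 4973, 125 and 736 CPM. All 4 groups overlapped, and the lowest library of each lay between 10.7 and 36.6 CPM. In bulk tissue, fewer epithelial cells and less RNA per cell cannot be told apart.

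Counts of the 10 genes together made up 0.00347% of the library in Ct_M replicate 3 and 0.878% in nPM_F replicate 1. Without Ttr, the other 9 genes made up 0.112% of the counts of nPM_F replicate 1. On the log2 scale the SD of Ttr over the 20 libraries was 3.22, rank 9 of all 19797 genes. The 10 genes had SDs from 1.58 (Kl, rank 219) to that of Ttr, against a median of 0.291 over all genes tested.

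**Figure D1:**
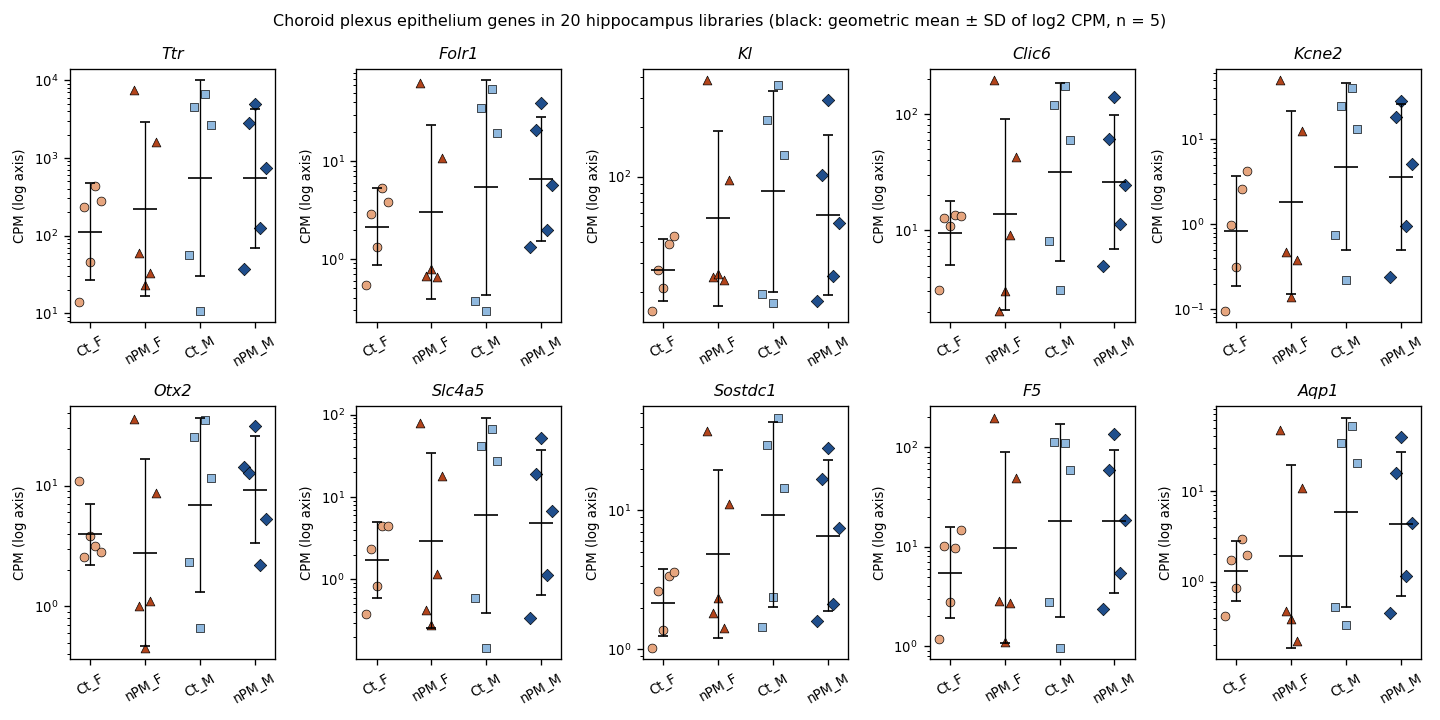
CPM of each of the 10 genes (log axis) in the 5 libraries of each group, with the geometric mean and ± 1 SD of log2 CPM in black. The groups overlap for every gene, and the highest library is nPM_F replicate 1 for 8 genes, with Ttr at 7409 CPM, and Ct_M replicate 4 for Sostdc1 and Aqp1.

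Levels were compared between genes only per length, as RPKM (reads per kilobase of gene model, scaled to the library total). Ttr had a median of 211 RPKM and was above Kl in 20 of 20 libraries. The other 9 genes had medians between 3.58 RPKM (Kl) and 0.583 RPKM (Slc4a5). In descending order these were Kl, Clic6, Sostdc1, Folr1, Otx2, F5, Kcne2, Aqp1 and Slc4a5. Kl exceeded Clic6 in 9 of 20 libraries, Folr1 exceeded Otx2 in 13, Otx2 exceeded F5 in 5, F5 exceeded Kcne2 in 12 and Kcne2 exceeded Aqp1 in 13, so the order of these neighbours changed from library to library. Clic6 was above Sostdc1 in 17 libraries, Sostdc1 above Folr1 in 16 and Aqp1 above Slc4a5 in 18.

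Among the carriers and receptors, Folr1 encodes the folate receptor that carries folate across the epithelium into cerebrospinal fluid. It lies on chromosome 7 (mm10 chr7:101858331-101870788, minus strand) and overlaps Anapc15 on the other strand. Folr1 was 0.544, 2.87, 1.34, 5.29 and 3.83 CPM in Ct_F and 62.6, 0.668, 0.798, 0.657 and 10.7 CPM in nPM_F. In males it was 0.373, 35.3, 0.295, 54.5 and 19.4 CPM in Ct_M and 1.33, 20.8, 39.4, 1.99 and 5.66 CPM in nPM_M. The 7 libraries highest in Ttr were also the 7 highest in Folr1, in the same order, and the whole range was 212-fold.

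Kl encodes Klotho, the co-receptor for FGF23, which is also made by neurons and the kidney (mm10 chr5:150952607-150993817, plus strand). Kl was 15.4, 27.1, 21.1, 39.2 and 43.9 CPM in Ct_F and 383, 24.8, 25.6, 23.8 and 95.05 CPM in nPM_F. In males it was 19.5, 221, 17.3, 356 and 135 CPM in Ct_M and 17.8, 103, 289, 25.2 and 52.4 CPM in nPM_M. nPM_F replicate 1 and Ct_M replicate 4 were highest and the groups overlapped. Kl had the narrowest range of the 10, 24.8-fold, and was still 17.3 CPM in the library lowest in Ttr. Its log2 CPM changed by 0.47 per unit of log2 Ttr.

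Among the ion and water transport genes, Aqp1 encodes the water channel of the apical membrane (mm10 chr6:55336432-55348555, plus strand). Aqp1 was 0.416, 1.72, 0.842, 2.98 and 1.96 CPM in Ct_F and 46.8, 0.477, 0.382, 0.219 and 10.7 CPM in nPM_F. In males it was 0.522, 34.1, 0.332, 52.4 and 20.2 CPM in Ct_M and 0.451, 15.8, 39.7, 1.16 and 4.42 CPM in nPM_M. Ct_M replicate 4 and nPM_F replicate 1 were highest, nPM_F replicate 4 was lowest with 4 counts, and the groups overlapped over a 239-fold range.

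Slc4a5 encodes an electrogenic sodium bicarbonate cotransporter (mm10 chr6:83219828-83304945, plus strand). It ranged from 0.148 CPM in Ct_M replicate 3 to 79.7 CPM in nPM_F replicate 1, 540-fold. Kcne2 encodes a potassium channel beta subunit (mm10 chr16:92292389-92298129, plus strand) and ranged 516-fold, from 0.0960 to 49.5 CPM. Its lowest value rested on 3 counts in Ct_F replicate 1, with an exact Poisson 95% interval of 0.619 to 8.77 counts that covers counting error only. Clic6, a member of the chloride intracellular channel family (mm10 chr16:92485736-92541243, plus strand), overlaps 2410124H12Rik on its own strand and ranged 94.6-fold, from 2.05 to 194 CPM. Slc4a5 and Kcne2 followed Ttr most steeply, each with 0.90 log2 units per unit of log2 Ttr, and Clic6 less so, with 0.62.

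Sostdc1 encodes a secreted inhibitor of BMP and Wnt signaling (mm10 chr12:36314169-36318452, plus strand). It was 1.024, 2.64, 1.37, 3.37 and 3.60 CPM in Ct_F and 36.9, 1.81, 2.36, 1.42 and 11.2 CPM in nPM_F. In males it was 1.45, 29.4, 2.36, 46.5 and 14.6 CPM in Ct_M and 1.59, 16.8, 28.1, 2.13 and 7.47 CPM in nPM_M. Sostdc1 spanned 45.4-fold, from Ct_F replicate 1 to Ct_M replicate 4, and the groups overlapped. F5, which encodes coagulation factor V (mm10 chr1:164151838-164220277, plus strand), overlaps Gm16548 and Gm16588 and spanned 207-fold, from 0.960 to 199 CPM. Ttr itself overlaps the antisense Gm16090 on chromosome 18, and the strand setting of the counting is not given in the sources used here, so reads of overlapping pairs may not be told apart.

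**Figure D2:**
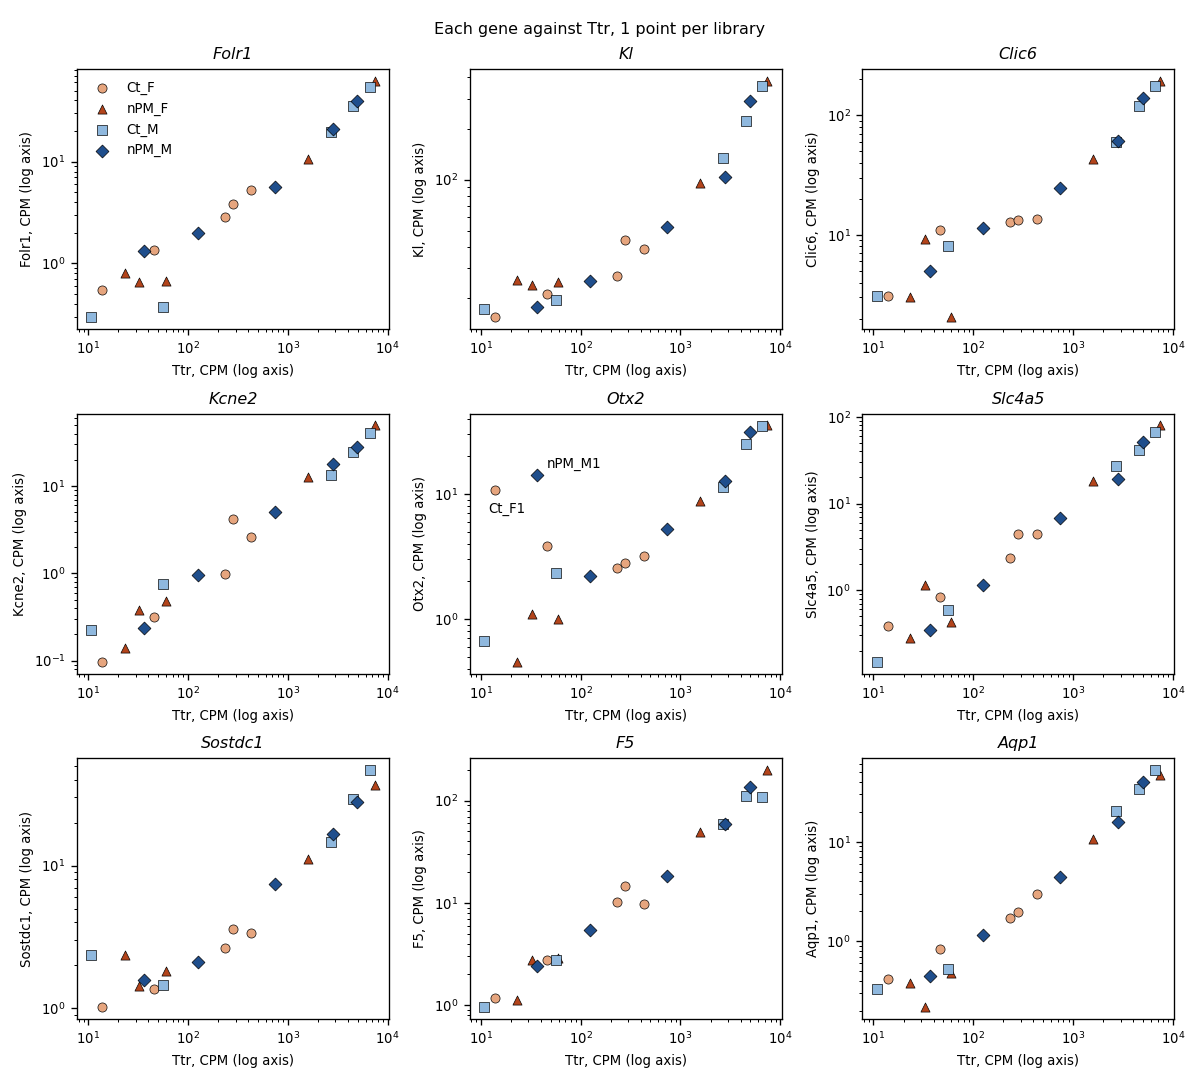
CPM of each of the other 9 genes against CPM of Ttr (both log axes), 1 point per library and coloured by group. Points of all 4 groups lie along 1 band in each panel; in the Otx2 panel Ct_F replicate 1 (10.9 CPM) and nPM_M replicate 1 (14.3 CPM) lie above it.

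The 10 genes co-varied closely over the libraries. Pearson's r of log2 CPM over the 20 libraries had a median of 0.957 over the 45 gene pairs, with a range of 0.732 to 0.992. The points share their libraries, so depth and tissue content are common to both axes of each pair. The median was 0.941 with Spearman's rho and 0.945 without Ct_M replicate 4 and nPM_F replicate 1, the libraries farthest from the median of Ttr. After the group means were taken off, the median r was 0.966, so the co-variation was present between libraries of the same group. F5 was closest to Ttr, at r = 0.992, and Otx2 was farthest from it, at 0.764.

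Otx2 departed from the other 9 genes in a pair of libraries. Otx2 (mm10 chr14:48657679-48667644, minus strand) was 10.9, 2.56, 3.84, 3.17 and 2.80 CPM in Ct_F and 35.4, 1.002, 0.451, 1.10 and 8.73 CPM in nPM_F. In males it was 2.31, 25.04, 0.665, 35.0 and 11.5 CPM in Ct_M and 14.3, 12.8, 31.3, 2.21 and 5.29 CPM in nPM_M. Ct_F replicate 1 and nPM_M replicate 1 were therefore high in Otx2 while they were among the 5 libraries lowest in Ttr. A line was fitted to log2 CPM of Otx2 on the mean standardised log2 CPM of the other 9 genes. Otx2 lay 2.94 log2 units above this line in Ct_F replicate 1 and 2.90 units above it in nPM_M replicate 1. Per 100 Ttr counts there were 78.3 Otx2 counts in Ct_F replicate 1 and 39.1 in nPM_M replicate 1. Without both libraries, r of Otx2 with Ttr over the other 18 was 0.953. Over the 9 genes other than Otx2, all 36 pairs lay between 0.935 and 0.992.

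Several genes named after their values were seen stood out in the same pair of libraries. Tfap2b, a transcription factor of the AP-2 family, was 6.15 CPM in Ct_F replicate 1 and 16.9 CPM in nPM_M replicate 1, against 0.0290 to 1.19 CPM in the other 18. Tal1, a bHLH transcription factor, was 5.99 and 10.8 CPM against 0.286 to 1.99 CPM. Bnc2, a zinc finger gene, was 7.04 and 14.6 CPM against 0.243 to 2.10 CPM. Ptch1, the Hedgehog receptor, was 79.3 and 101 CPM against 49.7 to 67.0 CPM. By r with the part of Otx2 that its line left over, Bnc2 ranked 1, Ptch1 5, Tal1 20 and Tfap2b 26. Of ranks 2 to 4, Itih3 was 48.0 and 60.4 CPM against 16.5 to 31.4 CPM. Tcaf2, at 1.02 and 1.72 CPM against 0.312 to 3.21 CPM, did not stand clear of the other 18. Sfrp5 did so in nPM_M replicate 1 only, with 1.38 and 2.92 CPM against 0.0369 to 2.12 CPM. None of these genes is on the lists of choroid plexus genes. A list of 13 thalamus markers summed to 371 CPM in Ct_F replicate 1 and to 528 CPM in nPM_M replicate 1. The latter was its highest value, over a range of 230 to 528 CPM. Ct_F replicate 3 (514 CPM), Ct_M replicate 4 (452 CPM) and Ct_M replicate 2 (384 CPM) were also above Ct_F replicate 1. Otx2 lay 0.72, 0.42 and 0.31 log2 units above its line there, against 2.94 in Ct_F replicate 1 and 2.90 in nPM_M replicate 1. The part of neighbouring brain regions in the Otx2 values of Ct_F replicate 1 and nPM_M replicate 1 was not tested.

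Other genes with known expression in the choroid plexus behaved like the 10. Their list was also drawn up with earlier results of these data known, so this likeness is a description and not an independent check. Of a list of 36, all were among the genes tested, and all 36 had r over 0.8 with the mean of the 10 standardised profiles, with a median of 0.956. Over all genes tested the median r was -0.035, and 2.28% had r over 0.8. The 5 highest per length were Enpp2, the lysophospholipase that makes lysophosphatidic acid, with a mean of 369 RPKM, the cation channel gene Trpm3 with 24.9, 1500015O10Rik (augurin) with 23.8, Cab39l with 17.9 and the IGF carrier gene Igfbp2 with 14.9. These are means and cannot be set against the medians of the members given above. The mean of Ttr was 1342 RPKM and that of Kl 10.4 RPKM. Enpp2 ran from 205 to 5261 CPM, and Trpm3 from 76.5 to 589 CPM, so that neither fell to near 0 in the libraries lowest in Ttr.

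The 10 genes with profiles most like the mean of the members, over all genes tested and 20 libraries, were Steap1 (r = 0.988), Tmem72 (0.988), Abca4 (0.987), Enpp2 (0.986), Cldn2 (0.983), Mfrp (0.981), Gm44250 (0.980), Slc2a12 (0.979), 1500015O10Rik (0.978) and Wdr86 (0.977). All but Gm44250, Slc2a12 and Wdr86 were on the list of 36. Cldn2 encodes a claudin of leaky epithelia, and Mfrp a frizzled-related membrane protein. Steap1 ran from 0.0694 to 18.7 CPM and Cldn2 from 0.0738 to 48.2 CPM.

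**Figure D3:**
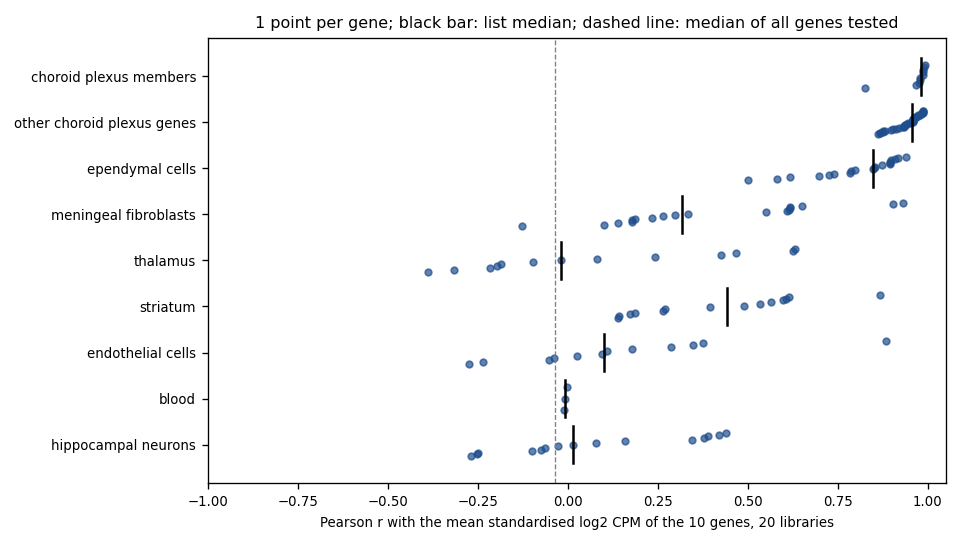
Pearson's r over 20 libraries between log2 CPM of each gene and the mean standardised log2 CPM of the 10 genes, 1 point per gene, by marker list. Black bars are list medians (0.956 for the other choroid plexus genes, 0.849 for ependymal cells, 0.317 for meningeal fibroblasts) and the dashed line is the median of all genes tested, -0.035; each of the 10 genes is part of its own mean profile.

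Markers of the neighbouring ependyma co-varied with the 10 genes. Of 20 ependymal markers, 11 had r over 0.8 with the mean profile and the median was 0.849. Their summed level ran from 49.2 CPM in nPM_F replicate 4 to 253 CPM in nPM_F replicate 1, and its r with Ttr on the log2 scale was 0.834 (rho 0.824, and r 0.780 without the libraries farthest from the median of Ttr). Tekt1, a gene of the ciliary axoneme, had r = 0.940 and Foxj1, the master regulator of motile cilia, r = 0.855. By group, the ependymal sum was 82.0 to 169 CPM in Ct_F, 49.2 to 253 in nPM_F, 74.5 to 237 in Ct_M and 94.0 to 217 in nPM_M. No ependymal marker was at 0 in any library. The range of the ependymal sum was 5.15-fold, against 19.0-fold for the sum of the 36 other choroid plexus genes. It was 253-fold for the sum of the 10 genes, which rests largely on Ttr in its highest library. In nPM_F replicate 1 the 10 genes made up 0.878% of the counts and Ttr alone 0.766%.

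Markers of the other tissues followed Ttr less closely. The 18 meningeal fibroblast markers had a median r of 0.317 with the mean profile, and their sum, 142 to 516 CPM, had r = 0.721 with Ttr. That list shares Igf2 and Igfbp2 with the choroid plexus list, and the sum of the other 16 had r = 0.422 with Ttr over 130 to 369 CPM. By group, the meningeal sum was 164 to 326 CPM in Ct_F, 142 to 487 in nPM_F, 150 to 516 in Ct_M and 197 to 404 in nPM_M, with no marker at 0. The median r with the mean profile was 0.443 for 14 striatum markers, 0.102 for 12 endothelial markers, 0.015 for 15 hippocampal neuron markers and -0.019 for the thalamus list. The striatum sum was 761 CPM in nPM_F replicate 1, the library highest in Ttr, and 170 to 251 CPM in the other 19. Of 8 blood markers 7 were in the table and 3 were tested, with a median r of -0.008. The part of ependymal, meningeal or striatal tissue in the spread of the 10 genes was not tested.

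**Figure D4:**
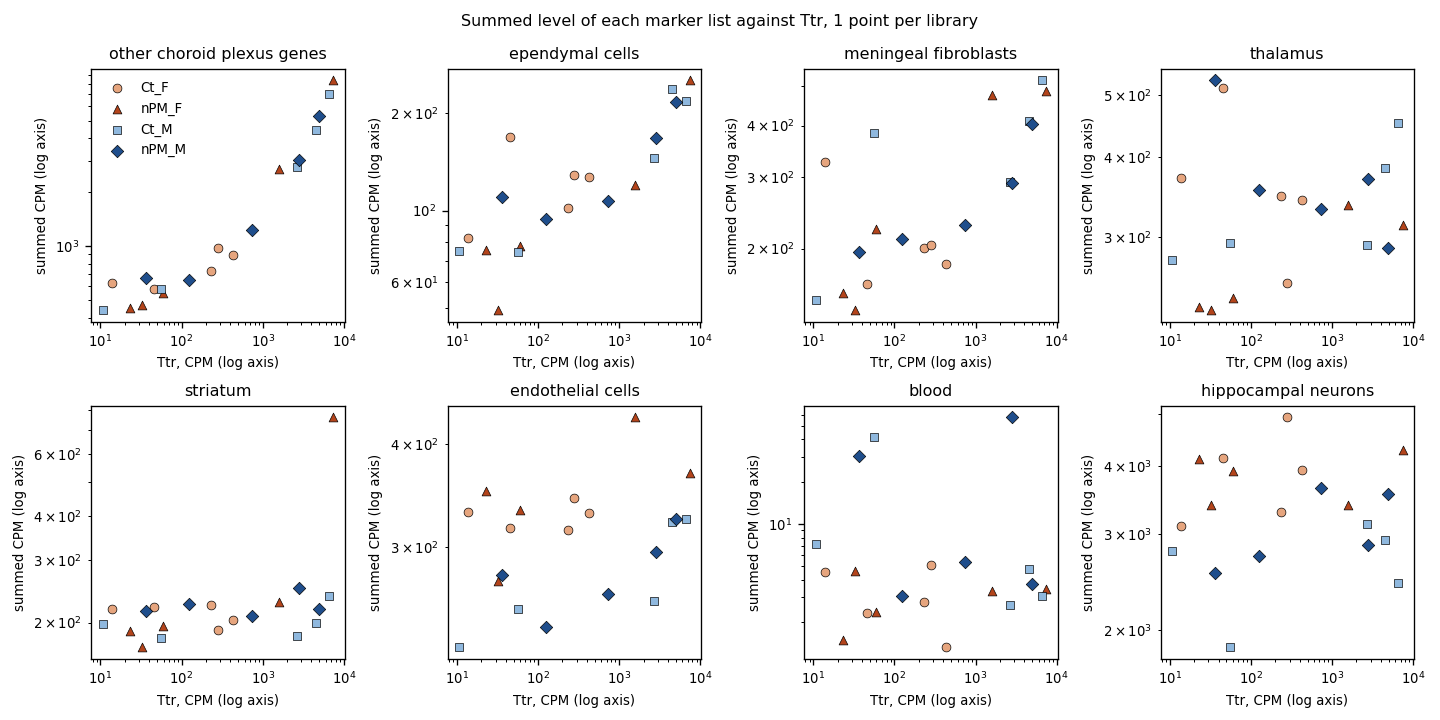
Summed CPM of each marker list against CPM of Ttr (both log axes), 1 point per library and coloured by group. The other choroid plexus genes and the ependymal markers climb with Ttr, and the striatum sum of nPM_F replicate 1 (761 CPM) stands above the other 19 libraries.

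The effect of gestational nPM was asked first in both sexes together. The fit was limma-voom with sex as a covariate, and a gene was called at p under 0.005, the threshold used by the study. No member was called, higher or lower, against 28 of 19797 genes called in all (0.141%). Ttr differed by 0.49 log2 units, nPM minus control (SE 1.31, 95% interval -2.24 to 3.21, limma p = 0.714, adjusted p = 0.9998 over all genes, n = 10 against 10). The 10 estimates ran from -0.29 to 0.49 with a median of 0.03, 6 positive and 4 negative, against a median of -0.0059 over all genes, 47.0% of them positive. Standard errors of 0.65 to 1.31 stood against a median SE of 0.110 over all genes, so these estimates were imprecise. The interval of Ttr held changes of either sign. The estimate for Ttr was 1.25 by edgeR and 1.26 by DESeq2, and it was -0.17 without Ct_M replicate 3 and -0.12 without nPM_F replicate 1. No member had a p under 0.05 before adjustment by limma, where 2.10% of all genes did, by edgeR or by DESeq2, and none was called by any of them.

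In males, 0 of 10 were called, against 41 genes (0.207%). Group means of log2 Ttr were 9.09 ± 4.19 in Ct_M and 9.08 ± 2.99 in nPM_M (SD, n = 5 each), and the fitted difference was -0.01 (SE 1.89, 95% interval -4.14 to 4.12, limma adjusted p = 0.9996). The 10 estimates ran from -0.78 to 0.24 with a median of -0.45, 9 negative. Over all genes the median was -0.0013, and 49.6% were positive. Of the 10, Otx2 had the only positive estimate, 0.24 (limma adjusted p = 0.987), and its sign turned with edgeR, to -0.18. For Ttr edgeR gave -0.68 and DESeq2 -0.68, and leaving out 1 library gave -1.43 (Ct_M replicate 3) to 0.94 (nPM_M replicate 1). Before adjustment no member had a p under 0.05 by limma, where 4.28% of all genes did, by edgeR or by DESeq2.

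In females, 0 of 10 were called, against 18 genes (0.0909%). Group means of log2 Ttr were 6.81 ± 2.08 in Ct_F and 7.79 ± 3.73 in nPM_F (SD, n = 5 each), and the fitted difference was 1.01 (SE 1.54, 95% interval -2.32 to 4.34, limma adjusted p = 0.9999). Sostdc1 had the lowest p of the 10, with a difference of 1.38 (SE 0.86, limma adjusted p = 0.9999). That difference was 0.58 without nPM_F replicate 1, 2.20 by edgeR and 2.18 by DESeq2. The 10 estimates ran from -0.36 (Otx2) to 1.44 (Kcne2) with a median of 1.03, 9 positive. Over all genes the median was 0.0038, and 51.2% were positive. The estimate for Ttr depended on single libraries. Without nPM_F replicate 1, the highest, it was -0.25, without Ct_F replicate 1 0.25 and without nPM_F replicate 5 0.34. Leaving out other libraries raised it, up to 1.82 without nPM_F replicate 3, or lowered it less. It was larger in fits of counts, with 3.20 by edgeR and 3.21 by DESeq2. Before adjustment, limma gave a p under 0.05 to 0 of the 10 genes and to 393 of all 19797, edgeR to 8 and to 594 of 19797, and DESeq2 to 9 and to 571 of 19689. The 10 genes co-vary, so these are not independent counts, and none was called by any of these tools.

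**Figure D5:**
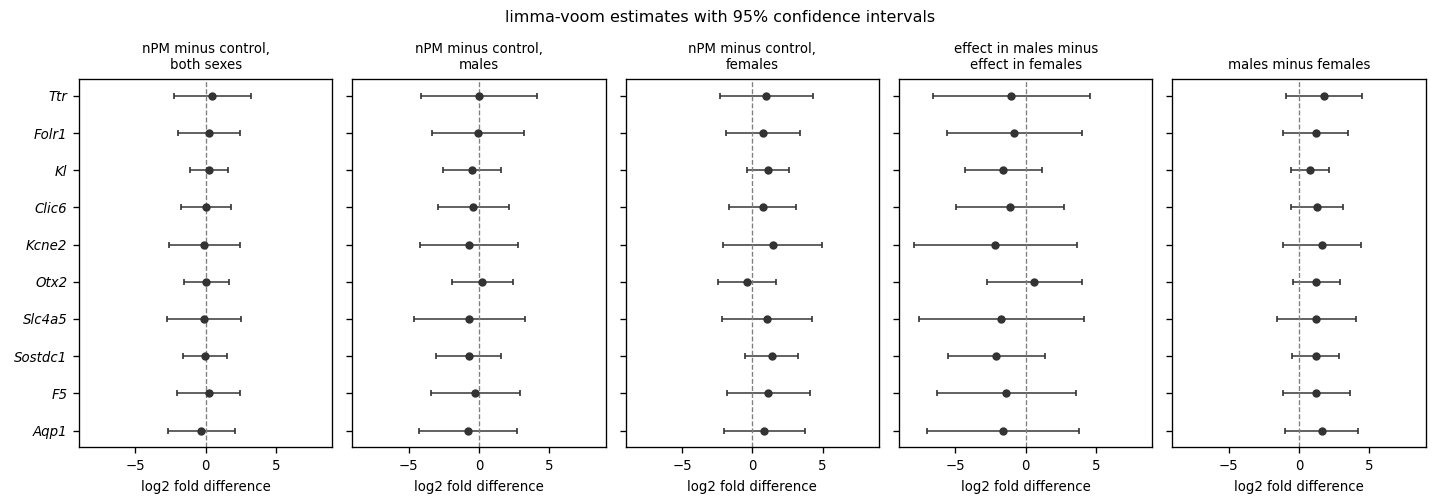
Estimated log2 difference of each gene (x axis, log2 units) with its 95% interval from limma-voom, in 5 panels for nPM minus control in both sexes, males and females, for the effect in males minus that in females, and for males minus females. Every interval spans 0; for Ttr in both sexes it runs from -2.24 to 3.21.

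Whether the nPM effect differed between the sexes was tested with the interaction term of a fit of all 20 libraries. No member was called, against 43 genes (0.217%). The effect on Ttr was 1.01 log2 units lower in males than in females (log2 difference -1.01, SE 2.68, 95% interval -6.59 to 4.57, limma adjusted p = 0.991). That difference was -3.86 by edgeR and -3.86 by DESeq2, and 0.22 without nPM_F replicate 1. For Sostdc1 the difference of effects was -2.09 (SE 1.65, limma adjusted p = 0.987), the lowest p of the 10. It was -1.30 without nPM_F replicate 1, -2.94 by edgeR and -2.91 by DESeq2. Before adjustment a p under 0.05 was given to 0 of the 10 by limma, 1 by edgeR and 3 by DESeq2, against 3.79%, 4.89% and 4.86% of all genes. The opposite signs of the medians in males and females were thus not shown to be a difference between the sexes.

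Males and females were compared with exposure as a covariate. No member was called, against 6147 genes (31.1%). All 10 estimates were positive, males minus females, from 0.79 (Kl) to 1.78 (Ttr), with a median of 1.24, against a median of 0.019 over all genes, 52.2% of them positive. For Ttr the SE was 1.31, the 95% interval -0.94 to 4.505 and the limma adjusted p 0.294. A p under 0.05 before adjustment was given to 0 of the 10 by limma and edgeR and to 1 by DESeq2, against 48.4%, 48.5% and 49.2% of all genes. The 10 genes co-vary over the libraries, so their estimates are not independent. With age in weeks as a covariate the estimate for Ttr was -3.07 and 84 of all genes were called. The ages of females and males did not overlap, so that fit cannot separate sex from age.

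The list of 36 other choroid plexus genes gave 0 called in all 5 comparisons. Its median was 0.00 in both sexes, -0.47 in males with 36 of 36 negative and 0.68 in females with 36 of 36 positive. For the interaction it was -1.20, and for sex 0.90 with 36 of 36 positive. Over all genes, 49.6% were positive in males, 51.2% in females and 52.2% for sex. The median SE of the 36 was 0.89 in males and 0.81 in females, and none had a limma p under 0.05 there. The 36 genes co-vary over the libraries, so their signs are not independent. In the comparison of the sexes 2 of the 36 had a limma p under 0.05 before adjustment, against 48.4% of all genes. Over the same comparisons the ependymal list had medians of -0.10 in both sexes, -0.08 in males, -0.18 in females, 0.11 for the interaction and 0.39 for sex.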

How the data were processed

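The authors depleted ribosomal RNA, checked reads with FastQC, trimmed them with Trimmomatic and aligned them with HISAT2 to mm10; featureCounts 1.5.0-p3 then gave gene totals on Gencode M11. The deposited values are counts of whole reads for 48709 genes, with the authors' gene lengths and their mean RPKM over all libraries. The deposited RPKM mean differed by at most 4.9e-11 from that computed here from counts and lengths. Here the counts were filtered with filterByExpr (at least 10 counts, total 15), scaled by TMM and fitted with limma-voom (limma 3.58.1, edgeR 4.0.16, R 4.3.3), for males and females together with sex as a covariate, for each sex, for the interaction and for sex. The scaling was recomputed within the libraries of each fit. Genes were called at p under 0.005, the study's threshold, and Benjamini-Hochberg adjustment ran over all 19797 genes. Log2 CPM used an offset of 0.5 counts. DESeq2 1.42.0 and edgeR's quasi-likelihood test were alternatives, with RLE scaling, other filters, the members left out of scaling, age, robust empirical Bayes, a replicate block and each library left out.

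Depth was 19092067 to 38663408 counts, where 3 counts, the limit that a count of 0 allows, correspond to 0.0960 CPM with TMM scaling in Ct_F replicate 1. The members and marker lists (other choroid plexus genes, ependymal cells, meningeal fibroblasts, thalamus, striatum, endothelial cells, blood, hippocampal neurons) were chosen with earlier results of these data known. The text names all 10 members, the 5 other choroid plexus genes highest in RPKM, any with p under 0.005 in a fit (there were none) and the 10 genes most like the members' mean. Tekt1, Foxj1 and the genes set beside Otx2 were named after their values were seen.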

Additional observations from a re-analysis of the deposited data

Results flagged for a closer look

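With 40 groups of 5 libraries examined, 10 genes in 4 groups, 2 held a library far from the other 4, and chance alone gives 2. Both were Ct_F replicate 1. Clic6 was lowest there, at 3.07 CPM (log2 CPM 1.63) against 11.01 CPM in the next library, a gap of 0.855 of the group's range where 0.710 is Dixon's critical value. Otx2 was highest there, at 10.9 CPM (log2 CPM 3.44) against 3.84 CPM in the next library, a gap of 0.721 of the range. Ttr was 13.9 CPM in the same library, the lowest of its group.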

How the results depend on the processing

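None of the 10 genes was called in any of the 5 comparisons under any alternative run, over 300 gene and setting values in both sexes, 200 in males, 200 in females, 300 for the interaction and 300 for sex. The estimate kept its sign in 228, 168, 189, 291 and 291 of them. The difference of Otx2 turned from -0.36 in females to 1.04 with edgeR, 1.03 with DESeq2 and 0.66 with a replicate block, and from 0.24 in males to -0.18 with edgeR, -0.18 with DESeq2 and -0.37 with the block. Leaving out 1 library gave Otx2 -1.36 to 0.40 in females and -0.52 to 0.91 in males, and Ttr -0.25 to 1.82 in females, -1.43 to 0.94 in males, -0.17 to 0.98 in both sexes, -2.43 to 0.22 for the interaction and 1.34 to 2.42 for sex, with 0.58 to 1.77 for Sostdc1 in females and -2.70 to -1.30 for its interaction. Ttr in both sexes turned without Ct_M replicate 3 (-0.17) or nPM_F replicate 1 (-0.12), and its interaction without nPM_F replicate 1 (0.22). Ttr also turned to 0.010 in males with at least 1 CPM in 5 samples, to -3.07 for sex with age as a covariate and to 0.71 for the interaction without Ct_F replicate 1 and nPM_M replicate 1, an alternative chosen after seeing the data. The cause was not tested. Ages did not overlap between the sexes, so the estimate for sex with age as a covariate cannot separate sex from age.

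Same-numbered libraries of different groups correlated at -0.416 to 0.283, 10 of 30 pairs over 0.1 and 6 of 20 libraries best with their own number, so the number was not taken as a pairing. With it as a replicate block, 0 members were called in every comparison and 21, 35, 22, 56 and 5834 of all genes in the order above. Counts of all genes called moved by over 1.5 times with no filter (71 in both sexes, 130 in males, 87 in females, 149 for the interaction), with DESeq2 (43, 113, 55 and 89), with edgeR (66 for the interaction), with at least 1 CPM in 5 samples (17 in both sexes, 25 for the interaction), without Ct_F replicate 1 and nPM_M replicate 1 (17 and 78) and with age (84 for sex). Leaving out 1 library gave 17 (without Ct_F replicate 1) to 47 (without Ct_F replicate 5 or nPM_F replicate 4) in both sexes, 25 (nPM_M replicate 5) to 79 (nPM_M replicate 4) in males, 10 (nPM_F replicate 5) to 49 (nPM_F replicate 4) in females, where it was also 39 (nPM_F replicate 1) and 28 (Ct_F replicate 5), and 27 (Ct_F replicate 3) to 81 (Ct_F replicate 1) for the interaction.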
